A study of Mus musculus with 2 samples.

Results

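The muscle genes Klhl40, Klhl41, Klhl31, Klhl30, Klhl33 and Klhl38, all of the kelch family, were described from long-read RNA sequencing of mouse gastrocnemius, together with unannotated reads assigned to the opposite strand of Klhl31. The 6 genes were taken by symbol from 14704 annotated genes with a read, with every kind of transcript model kept, which gave 49 models in replicate 1 and 37 in replicate 2. Antisense loci were taken where they overlapped the span of Klhl31 on the other strand, which gave 3 of 6338 antisense loci in replicate 1 and 2 of 5631 in replicate 2. The genes and the locus were selected with their levels in these libraries known, so the levels are given as a description.

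The gastrocnemius is the large muscle of the calf. The tissue came from male B6CASTF1/J mice, a first-generation hybrid of C57BL/6J and CAST/EiJ, aged 14 days, with no treatment or engineered allele named, and 2 µg of RNA entered each library. There was 1 group of 2 libraries, labelled as biological replicates with the same donor identifier. Their sample names mention several males, and whether the replicates were separate animals or pools is not stated. Every SD here thus measures the spread between these libraries, which may be technical. The p-values compare the read counts of these libraries, with reads taken as independent. They hold no estimate of the spread between libraries or animals.

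The libraries came to 1094607 reads (replicate 1) and 626289 reads (replicate 2) without spike-ins, and levels are reads per 1000000 of these totals (CPM). A gene without a read may still have stood at up to 3 reads, or 2.74 CPM and 4.79 CPM, and all intervals below cover counting error only. Markers of skeletal muscle fibres summed to 184992 CPM and 185323 CPM, while 3 of 5 markers of cardiac muscle had no read in either library and the 5 summed to 2.74 CPM and 3.19 CPM. Transcripts under 1000 bases had a median log2 difference, replicate 1 minus replicate 2, of -0.66, and those over 4000 bases had one of 0.47. Summed fibroblast markers stood at 6908 CPM and 2716 CPM, Schwann cell markers at 132 CPM and 291 CPM, blood markers at 386 CPM and 750 CPM, and endothelial markers at 259 CPM and 136 CPM. The part of transcript length and of these other cells in the differences between libraries below was not tested.

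Kelch proteins of this group carry a BTB domain, a BACK domain and a propeller of kelch repeats. The BTB domain docks on cullin-3, and the kelch repeats hold the protein that the cullin-3 ubiquitin ligase then acts on. Klhl40 and Klhl41 are known in muscle for holding on to thin filament proteins such as nebulin and leiomodin 3, and loss of either human gene causes nemaline myopathy. Klhl31 is needed for postnatal muscle in mice and has filamin C among its known partners. Klhl30, Klhl33 and Klhl38 are family members whose transcripts are enriched in muscle.

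The sequences that bear on the findings are the end of the antisense model and the splice junction that marks spliced sense messages of Klhl31. Added are the stretches upstream of Klhl40, the most abundant member, and of Klhl41, which had antisense reads at its start in replicate 1. The first line gives the last 30 bases of the antisense model of replicate 1, at chr9:77656524-77656553 (mm10, minus strand), with ATTAAA, a known form of the polyadenylation hexamer, in capitals; whether it serves here was not tested.
Klhl31 antisense 3′ end: aaATTAAAtgacaggaaactgttccttttc
The second line joins the last 20 bases of exon 2 of Klhl31, ending at chr9:77651175 on the plus strand, to the first 20 bases of exon 3, starting at chr9:77655127 and given in capitals. It lies in the coding sequence.
Klhl31 exon 2 to exon 3: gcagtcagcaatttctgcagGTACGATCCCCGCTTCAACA
The next lines give the 250 bases before the RefSeq start of Klhl40, chr9:121777357-121777606, and of Klhl41, chr2:69669870-69670119, both on the plus strand and both from RefSeq on GRCm38.p6, the assembly of mm10. The Klhl40 stretch ends 84 bases before the start of the Klhl40 model that carried most reads. Capitals mark E-boxes, CANNTG, the motif that myogenic bHLH factors recognise.
Klhl40 upstream: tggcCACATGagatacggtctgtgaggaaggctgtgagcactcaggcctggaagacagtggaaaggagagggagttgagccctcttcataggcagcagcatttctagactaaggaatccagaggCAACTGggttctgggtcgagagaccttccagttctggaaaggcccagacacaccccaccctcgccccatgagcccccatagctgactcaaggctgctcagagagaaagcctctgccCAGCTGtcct
Klhl41 upstream: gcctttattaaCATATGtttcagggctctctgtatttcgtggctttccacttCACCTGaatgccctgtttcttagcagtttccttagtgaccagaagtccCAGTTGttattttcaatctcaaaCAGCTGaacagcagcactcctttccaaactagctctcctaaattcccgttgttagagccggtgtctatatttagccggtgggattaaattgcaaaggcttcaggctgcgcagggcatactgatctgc

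The Klhl40 stretch held 3 E-boxes and the Klhl41 stretch 4, searched on both strands, and 1 in each was CAGCTG, itself a CANNTG. Among 32851 RefSeq promoters, 66.2% held at least 1 CANNTG in the same 250 bases and 13.0% held CAGCTG. A MEF2 motif, named after the factors that bind it, was found in the Klhl41 stretch and not in that of Klhl40, against 2.92% of promoters. Neither stretch held TATAAA, which 12.4% of promoters did. The Klhl31 stretch, not printed, held 0 of these motifs. Its RefSeq start lay 232 bases past the start of the annotated Klhl31 transcript. Nearly all of that stretch was therefore exon 1, and the sequence upstream of the transcript was not searched. Of the 2 Klhl33 entries, the one nearest the leading model held 1 CANNTG and 1 MEF2 motif and the other held 0, and neither held CAGCTG. The table held no entry for Klhl30 or Klhl38, and these matches describe letters, not binding.

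Klhl40, which stabilises nebulin and leiomodin 3, led the members. It had 293 reads in replicate 1 and 154 in replicate 2, or 268 CPM and 246 CPM, a mean of 257 ± 15.4 CPM (SD, n = 2). It made up 44.6% and 45.4% of all reads of the 6 genes, which summed to 571 ± 41.7 CPM (SD, n = 2). Klhl41, the other member tied to nemaline myopathy, had 88 and 43 reads, or 80.4 CPM and 68.7 CPM, with a mean of 74.5 ± 8.30 CPM (SD, n = 2). The 95% intervals of the libraries overlapped for both genes.

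Klhl31 had 98 and 39 reads on its own strand, or 89.5 CPM and 62.3 CPM, with a mean of 75.9 ± 19.3 CPM (SD, n = 2). Klhl33 went the other way, with 110 and 75 reads, or 100 CPM and 120 CPM, and a mean of 110 ± 13.6 CPM (SD, n = 2). Klhl30 stood at 50 and 27 reads, or 45.7 CPM and 43.1 CPM, the closest pair of values among the members (44.4 ± 1.82 CPM, SD, n = 2). Klhl38 was the least abundant, with 18 reads in replicate 1 and 1 in replicate 2, or 16.4 CPM and 1.60 CPM (9.02 ± 10.5 CPM, SD, n = 2). The second of these lay under the 3-read limit of its library.

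Levels of different genes are compared per kilobase of transcript, with the length of each gene's complete models weighted by reads. Klhl40 stood at 106 CPM per kb (110 and 101 in the libraries), above every other member in both libraries. Klhl33 at 29.95 CPM per kb and Klhl41 at 29.5 did not differ beyond their spread, at 27.3 and 32.6 against 31.8 and 27.1, and neither did Klhl30 at 14.6 and Klhl31 at 12.3. Klhl38 came last at 4.08 CPM per kb, below every other member in both libraries. With the longest annotated transcript as the length, Klhl33 fell to 20.0 CPM per kb, and Klhl41 stood above it. The levels of Klhl33 and Klhl31 include many unspliced reads of the last exon. An alternative chosen after seeing the data left out reads that do not follow a gene's splicing, from genes and library totals alike. Klhl33 then stood at 12.9 CPM per kb (16.8 and 9.10), below Klhl41 at 29.8 (31.8 and 27.8) in both libraries. Klhl31 stood at 6.24 (6.80 and 5.68), below Klhl38 in replicate 1 (7.61). The median of the 13138 genes with a complete model was 3.43 CPM per kb, and 95.1% of them stood below Klhl40, 86.6% below Klhl33, 86.5% below Klhl41, 77.6% below Klhl30, 74.6% below Klhl31 and 53.5% below Klhl38.

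**Figure D1:**
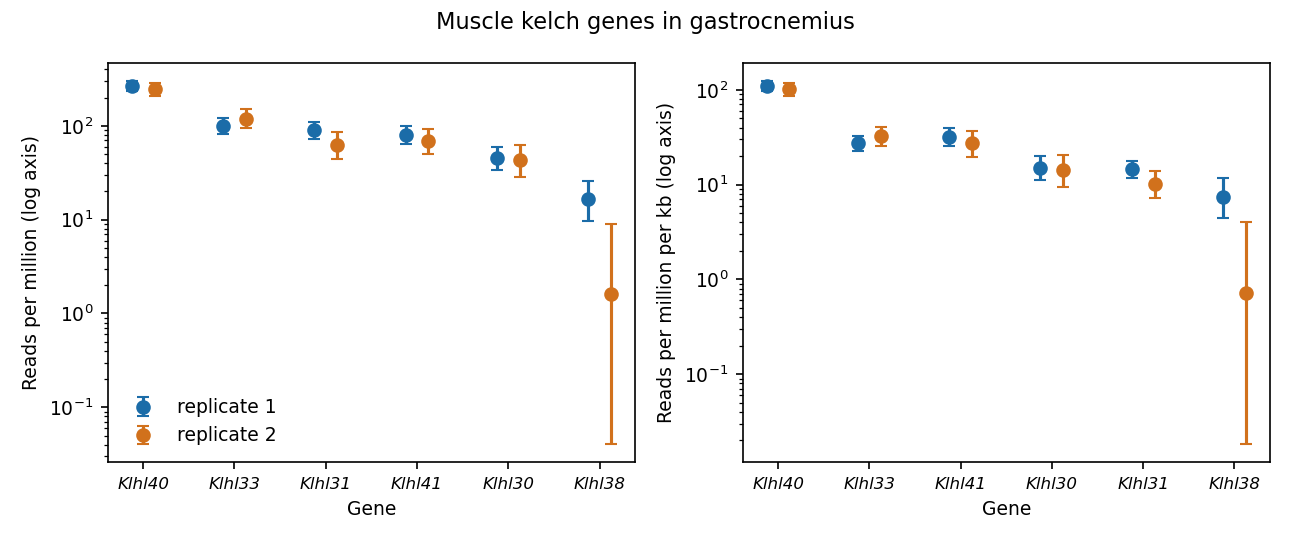
Reads per 1000000 (CPM) of the 6 muscle kelch genes in each library (left) and the same per kilobase of transcript (right), both on log axes; points are libraries and bars are 95% exact binomial intervals of the counts. Klhl40 stands highest in both panels, and the Klhl38 point of replicate 2 rests on 1 read.

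Reads per gene were compared between the libraries with two-sided Fisher's exact tests over 7955 genes with at least 10 reads, adjusted by Benjamini-Hochberg. Of these genes 13.5% were called at an adjusted p under 0.05, and of the 6 members 1 was called. That member was Klhl38, higher in replicate 1 (ratio 10.3, 95% exact interval 1.63 to 429, exact p = 0.00325, adjusted p = 0.0285). The call was lost in 4 alternatives, with adjusted p from 0.0524 to 0.128. The nearest of the others was Klhl31, 1.44 times higher in replicate 1 (interval 0.983 to 2.14, Fisher's exact p = 0.0618, adjusted p = 0.241). The ratios of Klhl40, Klhl41 and Klhl30 were 1.09, 1.17 and 1.06, and that of Klhl33 was 0.839, all with intervals that included 1 and adjusted p of 0.548 or more by the same exact tests. The median log2 difference over all tested genes was 0.24 in favour of replicate 1, so the log2 differences of Klhl40 (0.12) and Klhl41 (0.22) lay close to it.

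Klhl40 and Klhl41 reads were mostly assigned to annotated transcripts with the whole coding sequence. The Klhl40 gene spans chr9:121777607-121783818 on the plus strand. Its annotated 6-exon transcript (chr9:121777691-121783818, 621 codons) carried 279 of 293 reads in replicate 1 and 142 of 154 in replicate 2. Models with the whole coding sequence took 97.6% and 94.8% of Klhl40 reads. Such shares, here and below, count reads by their model, and the ends of single reads were not examined. Klhl41 (chr2:69670120-69684230, plus strand, 606 codons) had 1 annotated transcript, with 80 of 88 and 36 of 43 reads. Models with the whole coding sequence took 90.9% and 83.7% of Klhl41 reads. In Klhl38 (chr15:58314573-58324169, minus strand, 581 codons) 15 of 18 reads and the lone read of replicate 2 were on such a model. A partial Klhl38 model, chr15:58313516-58322234, had 2 reads in replicate 1 and ran 1057 bases past the gene.

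Klhl30 lay in between. Models with the whole coding sequence took 78.0% (95% exact interval 64.0 to 88.5) and 55.6% (35.3 to 74.5) of Klhl30 reads. Its 8-exon transcript (chr1:91351016-91362416, plus strand, 581 codons) carried 37 of 50 and 13 of 27 reads. Partial matches to that transcript took 5 of 50 and 9 of 27 Klhl30 reads (21.7 ± 16.5%, SD, n = 2). Of the 9 in replicate 2, 4 came from an unspliced partial model of 129 bases, chr1:91361009-91361137.

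Klhl31 and Klhl33 were different: much of their signal came from unspliced reads of the last exon. Klhl31 (chr9:77636500-77660127, plus strand) has 3 exons, 634 codons and a 3′ UTR of 4268 bases, 65.7% of the transcript. Its annotated transcript carried 40 of 98 reads in replicate 1 and 17 of 39 in replicate 2. Models with the whole coding sequence took 42.9% and 46.2% of Klhl31 reads. Reads that overlap a gene without following its splicing, the Genomic class of the annotation tool, took 50.1 ± 5.61% of Klhl31 reads (SD, n = 2), against 3.51 ± 1.66% of reads of all annotated genes. In replicate 1, 52 of these 53 reads lay within the last exon, in models of 37 and 15 reads, and in replicate 2 all 18 did.

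Klhl33 (chr14:50888582-50897507, minus strand, 793 codons) has a 3′ UTR of 2807 bases. Genomic reads took 44 of 110 reads in replicate 1 and 55 of 75 in replicate 2 (56.7 ± 23.6%, SD, n = 2), and all of them lay within the last exon. The leading Genomic models, with 39 and 54 reads, both ended at the annotated 3′ end, chr14:50888582, and were 1203 and 768 bases long. Reads on models with the whole Klhl33 coding sequence came to 30 in replicate 1 (27.3%) and 11 in replicate 2 (14.7%). With the Genomic class left out, also from the library totals, the level of Klhl33 fell from 110 CPM to 47.6 CPM and that of Klhl31 from 75.9 CPM to 38.6 CPM.

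**Figure D2:**
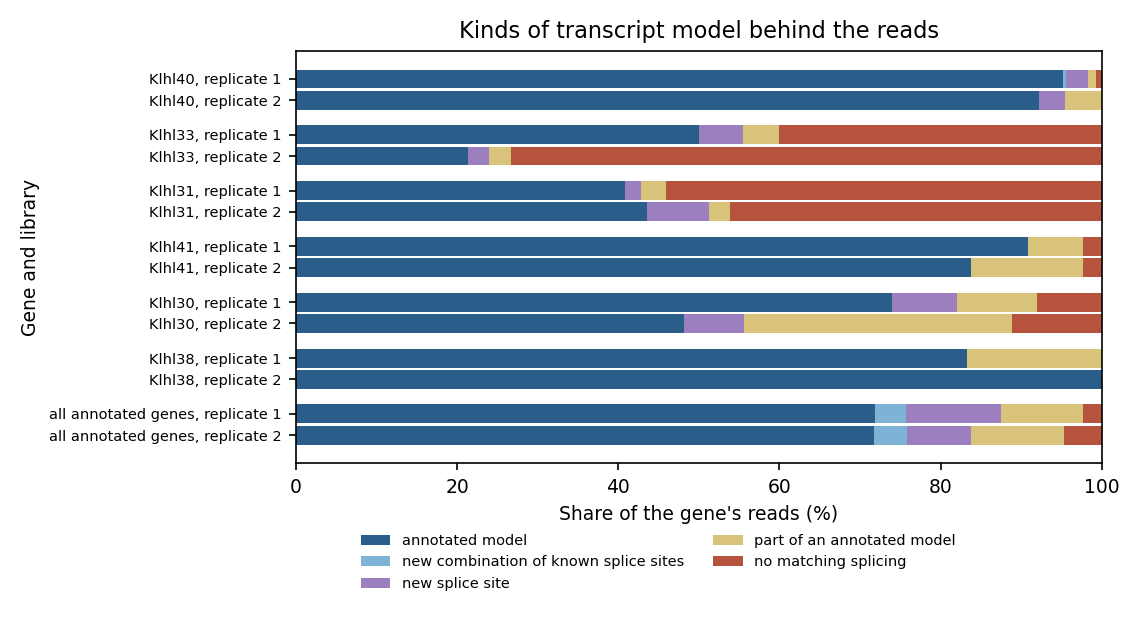
Share of each gene's reads, in percent, by kind of transcript model, 1 bar per library, with all annotated genes at the bottom. Klhl40, Klhl41 and Klhl38 rest mostly on annotated models, while reads without matching splicing make up 50.1% of Klhl31 and 56.7% of Klhl33 on average.

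Over the 6 genes together, annotated models took 77.0% and 66.4% of reads (71.7 ± 7.53%, SD, n = 2), near the 71.8 ± 0.0621% of all annotated genes. The mix of complete models was compared between the libraries for genes with at least 50 complete reads in each. Of 961 genes 2.29% were called at an adjusted p under 0.05, and Klhl40, the only member deep enough, was not among them (p = 0.983, adjusted p = 1, chi-square test over 961 genes). Its annotated transcript took 96.9% and 96.6% of complete reads. Klhl33 was the only member with 2 prominent complete models: the 4-exon coding transcript had 27 and 9 reads, and the unspliced annotated transcript Klhl33-203, of 1819 bases, had 26 and 7.

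Models of 4 members held 20 introns not in the annotation, and 4 of them were seen in both libraries. The most frequent was an 82-base intron downstream of Klhl40, chr9:121784351-121784432, with 9 reads in replicate 1 and 6 in replicate 2. Of these, 7 and 4 reads belonged to a 7-exon model of 4498 bases that held the whole Klhl40 coding sequence and ran on to chr9:121786028, past the annotated gene end at 121783818. This extension entered Hhatl, a gene on the opposite strand whose 3′ end lies past a gap of 197 bases from Klhl40 and which had 513 CPM and 923 CPM, and the intron was not one of Hhatl. The 7-exon model took 2.39% and 2.60% of Klhl40 reads. Of the reads with the intron, 1 in replicate 1 and 2 in replicate 2 were on a 2-exon model, chr9:121784016-121786028. That model lies past the Klhl40 end and within the span of Hhatl, and is counted with Klhl40 as labelled.

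The other introns seen in both libraries were rare. In Klhl33 an intron within the last exon, chr14:50889861-50891061, had 3 reads and 1. In Klhl30 an intron of 599 bases, chr1:91361138-91361736, had 2 reads and 1, and it starts before the stop codon, so its models lack the annotated end of the coding sequence. In Klhl31 an intron within the first exon, chr9:77636556-77636666, had 1 read in each. Of the 20 introns 9 could be read from annotated exons, and 8 of those began with GT and ended with AG.

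On the strand opposite Klhl31, antisense loci held 1620 reads in replicate 1 and 2546 in replicate 2. That is 1480 CPM (95% exact interval 1409 to 1554) and 4065 CPM (3909 to 4226). Against 98 and 39 reads on the sense strand, antisense reads were 94.3% (93.1 to 95.3) and 98.5% (97.9 to 98.9) of all reads at the gene, or 96.4 ± 2.97% (SD, n = 2). There were 16.5 and 65.3 antisense reads per sense read, and 36.0 and 121 per spliced sense read, the kind that crosses a junction such as the one printed above. The antisense level was 2.75 times higher in replicate 2, while the sense level was higher in replicate 1, and antisense reads of all loci were also a larger share of replicate 2 (2.78% against 1.66%). These values chose the locus, so no test is given.

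Nearly all antisense reads came from 1 unspliced model in each library. In replicate 1 it spanned chr9:77656524-77657524 on the minus strand, 1001 bases, with 1617 reads. In replicate 2 it spanned chr9:77656523-77660127, 3605 bases, with 2545 reads, and its 5′ end fell on the annotated end of Klhl31. Both lay wholly within the 3′ UTR part of the last exon, and their 3′ ends were 1 base apart. The 5′ ends lay 2603 and 0 bases from the end of the gene. In replicate 1, 1 further read joined the same locus with a 2-exon model that reached 77660127.

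**Figure D3:**
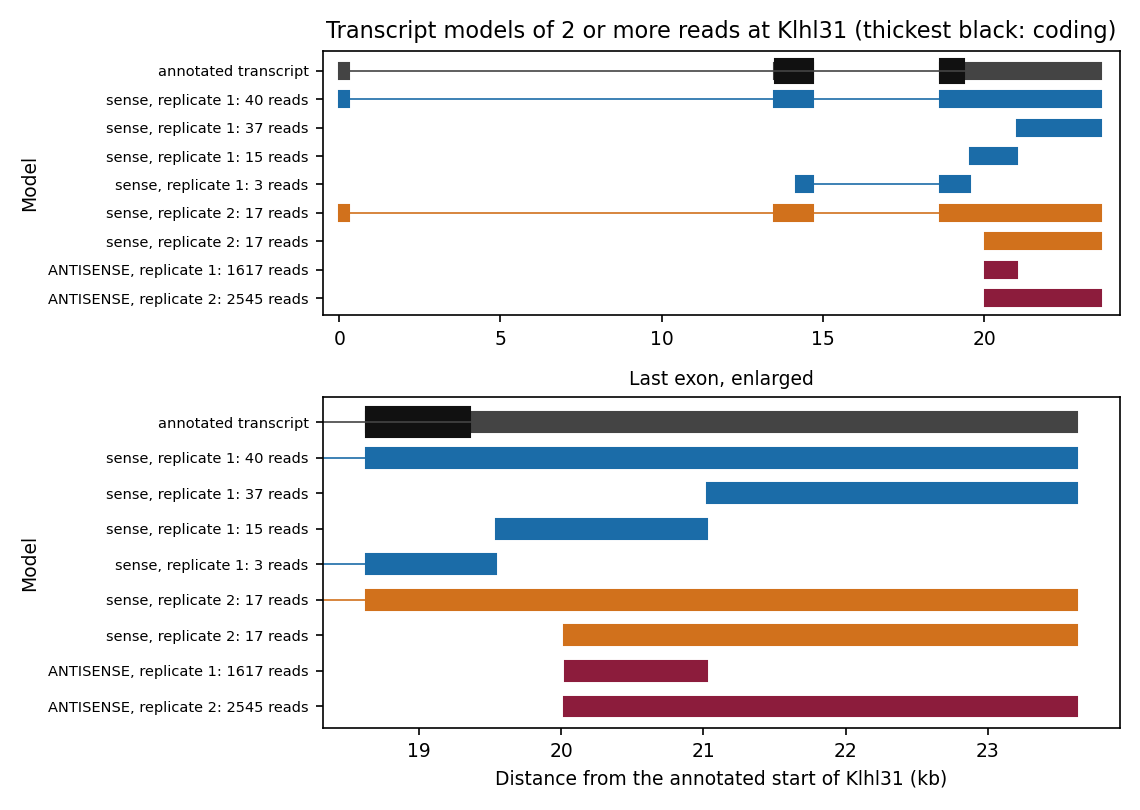
Transcript models of 2 or more reads at Klhl31, in kb from its annotated start, for the whole gene (top) and its last exon (bottom); boxes are exons, thin lines introns, and the tallest black boxes the coding sequence. The antisense models, with 1617 and 2545 reads, lie in the last exon beyond the coding sequence and share their left end, and unspliced sense models share ends with them.

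The model ends were not independent between strands. The upper end of the antisense model of replicate 1, 77657524, was also the boundary of both leading unspliced sense models of Klhl31 in that library, and in replicate 2 the unspliced sense model of 17 reads had the same start and end as the antisense model. How ends were given to unspliced models is not recorded in the labels or file headers, so the lengths 1001 and 3605 are those of the models and may not be those of single molecules.

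An unspliced model carries no intron to show its strand, and a wrong strand for these reads was not tested. On the minus strand, ATTAAA began 28 bases before the 3′ end of replicate 1 and 29 before that of replicate 2, and it was the only hit among AATAAA and ATTAAA in the last 50 bases. Of the 20 genomic bases after the 3′ end 5 and 6 were A. A run of 24 A on the minus strand lay inside the locus, at chr9:77656645-77656668, 122 bases from the lower 3′ end, and runs of 10 and 11 A lay at chr9:77656634-77656643 and chr9:77657386-77657396. The sense strand had a run of 13 A at chr9:77656013-77656025, just before 77656043, where several shorter sense models ended. The sense transcript itself has AATAAA 22 bases before its annotated end. Priming of reads from inner runs of A was not tested.

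The span of 3605 bases was searched against all annotated transcripts. Parts of it matched transcripts of 2179 other genes over 100 bases or more, with a longest hit of 257 bases and a highest identity of 91.0%. Of those matches 97.9% lay within the span of the replicate 1 model. Their median start and end were chr9:77657371 and chr9:77657509, near the 5′ end of that model. No hit covered the locus, so a near-identical annotated copy of it was not found.

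Among all antisense loci this was the most abundant in replicate 2 and ranked 2 in replicate 1. It held 14.6% and 8.90% of their antisense reads, where 71.9% and 70.5% of loci had 1 read each. The next locus below it had 481 reads in replicate 2 and 216 in replicate 1. In replicate 1, 51 annotated genes had more reads than the locus, and in replicate 2, 22 did. Among genes with at least 30 sense reads, 1243 of 3541 in replicate 1 and 627 of 2032 in replicate 2 had an antisense locus opposite them. Their median was 0.0263 antisense reads per sense read in each library, 5 genes in each library had more antisense than sense reads, and Klhl31 had the highest ratio in both. This rank is a description, since the locus was selected on its level.

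**Figure D4:**
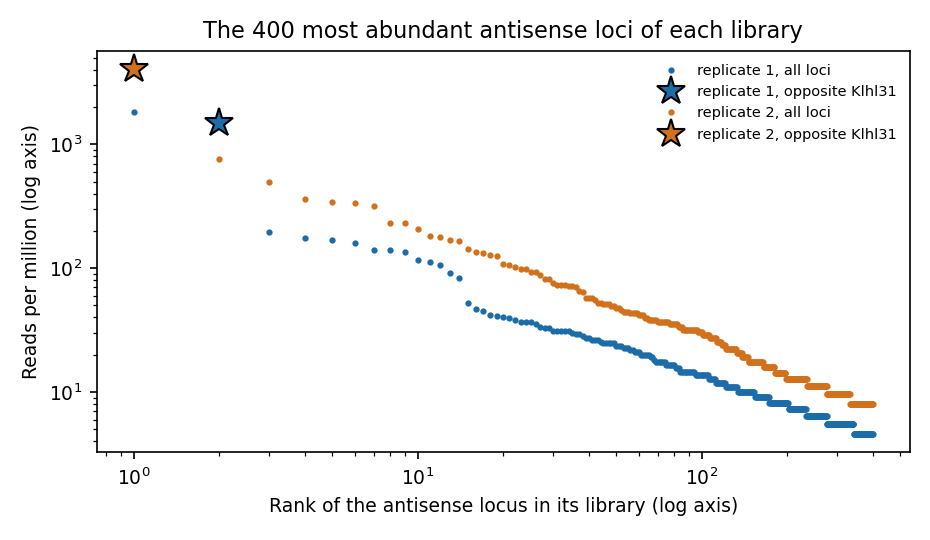
The 400 most abundant antisense loci of each library by rank (x) and CPM (y), both log axes; stars mark the main locus opposite Klhl31. The star is the highest point of replicate 2 and the second point of replicate 1.

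The remaining antisense loci at Klhl31 had 1 read each. In replicate 1 they lay at chr9:77649971-77651175 and chr9:77651175-77652136, and in replicate 2 a spliced one lay at chr9:77632965-77636787, across the start of the gene. None of them was seen in both libraries.

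The other members had few reads in unannotated antisense loci on their opposite strand. Antisense loci that overlapped Klhl41 had 11 reads in replicate 1 and 3 in replicate 2, 11.1% and 6.52% of these and the sense reads together. In replicate 1, 1 of the 11 came from a model that does not reach the gene, chr2:69668207-69668736. Another 3 of the 11 came from spliced models that began at the first base of Klhl41, chr2:69670120, and touched it at that base only, running away from it through the stretch printed above, and replicate 2 had none of these. An unspliced model with its 3′ end at 1 shared base, chr2:69680743, had 2 reads in each library, with lengths of 2172 and 743 bases. Another, at the end of Klhl41, was seen in both libraries too, at chr2:69683611-69684230 with 3 reads and at chr2:69683609-69684230 with 1. Klhl33 had 0 and 1 antisense reads. Klhl40, Klhl30 and Klhl38 had 0 in both libraries, which allows up to 2.74 CPM and 4.79 CPM. Reads of annotated genes on the opposite strand were not counted here. Such genes are Gm47108 at Klhl40 and Gm15943 at Klhl38, so these 0 counts cover unannotated loci only.

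Other genes of the kelch family were taken as 46 genes, the remaining Klhl and Kbtbd genes with Keap1, Enc1, Ivns1abp and 4 Klhdc genes. Of these 29 had reads in both libraries and 9 in neither. Their median was 2.70 CPM per kb over the 36 with a complete model, beside 3.43 over all genes. Of the 46 genes, 6 stood at or above the 12.3 CPM per kb of Klhl31, which was 6.24 without the Genomic class. These were Klhdc2 at 114 ± 8.35 CPM per kb, Klhdc3 at 88.6 ± 22.6, Ivns1abp at 34.8 ± 4.45, Keap1, the adaptor that holds the oxidative stress factor Nrf2 in check, at 18.1 ± 2.48, Klhl8 at 16.4 ± 6.57 and Klhdc1 at 16.4 ± 0.943 (SD, n = 2 for each). Klhdc2 alone stood above Klhl40, so without the 4 Klhdc genes no gene of the list did. The Klhdc genes were listed by symbol, and whether they carry the BTB domain described above was not examined. Of 23 tested, 2 were called, Klhdc3 higher in replicate 1 and Kbtbd3 in replicate 2, where 13.5% of all tested genes were.

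**Figure D5:**
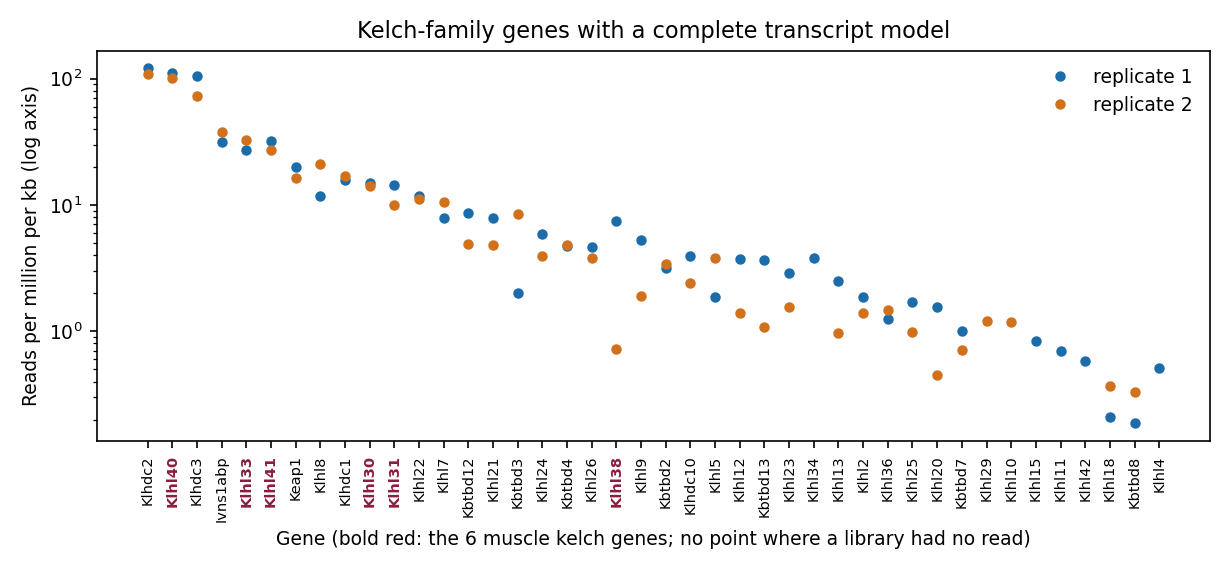
CPM per kilobase (log axis) of the kelch-family genes described here with a complete transcript model, 1 point per library, ordered by the mean; the 6 muscle kelch genes are in bold red. Klhl40 stands behind Klhdc2 alone, while Klhl38 stands in the middle of the family.

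The cullin-3 ligase that BTB-kelch proteins serve was present throughout. All 11 genes of its core and of the NEDD8 pathway that switches cullins on were seen in both libraries, with a median of 25.4 CPM per kb. Ube2m, the enzyme that passes NEDD8 to cullin-3, stood at 169 ± 28.2 CPM per kb, Nedd8 at 131 ± 35.2, Rbx1, the RING subunit, at 116 ± 32.8, and Cul3 at 26.7 ± 2.42 (SD, n = 2 for each). Cul3 thus stood below Klhl40 and near Klhl41 per kilobase. It was also near Klhl33 at 29.95 CPM per kb, but Klhl33 stood at 12.9 without the Genomic class. Of 10 genes tested, Rbx1 was called, higher in replicate 2 (Fisher's exact test, adjusted p = 0.00703), beside 13.5% of all tested genes.

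A list of 12 genes of the thin filament and Z-disc, known partners of the members among them, was seen whole in both libraries. It includes Kbtbd13, which is also counted among the kelch genes above. Acta1, the skeletal actin gene, stood at 52501 ± 3378 CPM per kb, Fhl1 at 248 ± 38.9, the actin-severing Cfl2 at 182 ± 41.6 and Nrap, a nebulin-related anchoring protein that Klhl41 is known to bind, at 49.3 ± 14.2 (SD, n = 2 for each). Of the proteins that Klhl40 and Klhl41 hold on to, Lmod3 stood at 42.9 ± 9.54 CPM per kb and Neb at 33.9 ± 16.3 CPM per kb of its complete models. The length of those Neb models averaged 3500 bases, far short of the giant full transcript. Flnc, a partner of Klhl31, stood at 9.48 ± 0.592 CPM per kb. Of the 12 genes tested 5 were called higher in replicate 1 and 1 in replicate 2, where 13.5% of all tested genes were called in either direction. That share depends on depth: with a read minimum of 50, which all of the list but Kbtbd13 met, it was 33.2% of 3271 genes.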

How the data were processed

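Gastrocnemius RNA of 14-day-old male mice was sequenced as long reads in 2 libraries of 1 group. The authors deposited, for each library, whole-number counts of reads on each transcript model and the exons of those models, per the file headers. Per the deposited file descriptions, reads were aligned to mm10 and annotated against GENCODE M21. The attribute names are those of TALON. Aligner, read correction and tool versions: not given in the sources used here. Mice of this cross carry CAST alleles, and the effect of aligning them to mm10 was not tested.

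The deposited counts entered all steps unchanged. Reads of the ERCC spike-ins (47054 and 16073) were left out, the Lexogen spike-ins were not analysed here, and CPM are counts per 1000000 reads that remained. Counts per gene sum all models of the annotated gene. A long read is 1 molecule as counted, so CPM is not divided by length except where stated. Libraries were compared per gene by two-sided Fisher's exact tests (at least 10 reads in all), and complete models, joined by intron chain with those under 5 reads pooled, by Fisher's exact or chi-square tests (at least 50 complete reads in each library), adjusted by Benjamini-Hochberg over all genes tested. Shares have exact Clopper-Pearson intervals of 95%. Tools were Python 3.11.15, scipy 1.17.1, R 4.3.3 with edgeR 4.0.16 for the TMM factors alone, and blastn 2.17.0. Sequences within exons were read from GENCODE M21 transcripts.

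A gene of the kelch-family list is not reported here. The members and lists were chosen with earlier results of these data known. Named were all members, the antisense loci at Klhl31, models with 10% or more of a member's reads, and the 4 most abundant genes of each list by mean CPM. Named outside this rule, after their values were seen, were the rare introns, Hhatl, antisense models at Klhl41, the called gene Kbtbd3, Klhl8, Klhdc1, Lmod3, Neb and Flnc. Gm47108 and Gm15943 were named for their position alone. Alternatives were other choices of models, library totals, read minimums and overlap rules, TMM scaling, thinning of the deeper library, and leaving out each library.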

Additional observations from a re-analysis of the deposited data

How the results depend on the processing

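Leaving out the Genomic class, also from the library totals, lowered the summed level of the 6 genes from 571 to 477 CPM. Counting partial models raised the genes called for model shares from 22 to 214 (19.5% of 1096), without a call for a member. With the longest annotated transcript as the length, 4 of the 6 members kept their place in the order per kilobase, and without the Genomic class, chosen after seeing the data, 3 did. Between 778 and 1263 genes were called for reads between the libraries over 8 alternatives. The share called ran from 6.12% of 14704 genes with a read minimum of 1 to 33.2% of 3271 genes with one of 50. In the main run it was 13.5% of 7955 genes. Klhl38 lost its call with annotated models only (adjusted p = 0.0979), with TMM scaling (0.0533), with no read minimum (0.0524) and with the deeper library thinned (0.128, Fisher's exact tests). TMM scaling moved log2 differences by -0.16. The antisense share of Klhl31 lay between 96.4% and 98.5% under other overlap and sense rules, and between 94.3% and 98.5% with either library left out, where the summed level was 541 to 600 CPM and the share of annotated models 66.4% to 77.0%. No paired analysis was possible because there was 1 group. Depth limits Klhl38, whose level in replicate 2 rests on 1 read, and the rare introns, which rest on 1 to 9 reads.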
